A study of Mus musculus with 2 samples.

Results

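Ligands and receptors of the tumor necrosis factor (TNF) family were followed, as messenger RNA, through the immune cells of a mouse brain tumor. The 10 genes are the ligands Tnf, Lta, Ltb, Tnfsf8, Tnfsf9, Tnfsf13 and Tnfsf13b and the receptors Tnfrsf1a, Tnfrsf1b and Cd40. They were chosen by symbol, 7 ligands and 3 receptors of the 31053 features counted in both libraries, and other family members are given only as context. GL261 glioma cells (100000 per mouse) were placed in the brain of male C57BL/6 mice 8 to 12 weeks old, and on day 10 living CD45.2+ cells of the right hemisphere, freed of most myelin on Percoll, were sorted and made into libraries with a 10x Genomics 3' v3 kit. The WT mice lacked the transgene. The CD169-DTR mice were heterozygous for a diphtheria toxin receptor placed in Siglec1, the gene of the macrophage lectin CD169, so the targeted cells were those in which Siglec1 is active. Mice of both groups received diphtheria toxin into the peritoneum on day -1 and day 4 relative to the tumor cells, and 3 mice were pooled into each library.

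Most TNF family ligands are trimers held in the membrane of the cell that makes them or shed from it, and they act by clustering receptors on nearby cells. TNF binds the widely expressed TNFR1 (Tnfrsf1a) and the more restricted TNFR2 (Tnfrsf1b). Both lead to NF-κB, and TNFR1 can also start cell death. CD40 is the receptor through which helper T cells activate antigen-presenting cells, and BAFF and APRIL (Tnfsf13b and Tnfsf13) sustain B cells and plasma cells.

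The comparison asks which immune cells make these ligands, which carry the receptors, and how both differ when CD169-expressing cells are targeted. With 1 library per genotype no test was possible, and genotype and library cannot be told apart. Levels are unique molecular identifiers (UMIs, counted molecules) of a gene scaled to 1000000 UMIs of a cell class (CPM), with exact 95% Poisson intervals. Differences are log2 ratios of WT over CD169-DTR with exact 95% intervals, so a positive value means higher in WT, and where values stand in pairs WT comes first. Shares carry exact Clopper-Pearson intervals, and all intervals cover counting error only. For a count of 0 the limit given is that of 3 counts, which is not the interval's upper bound. A gene was called 2-fold apart when it had 20 or more UMIs in the class over both libraries, at least 1 in each, and a ratio of 2 or more in either direction.

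The libraries held 101808996 and 84065489 UMIs in WT and CD169-DTR, and 10107 and 7604 cells had 1000 or more UMIs and at most 17% mitochondrial UMIs. They shared 21 cell barcodes. Of 9322 and 6981 immune cells, microglia made up 50.7% and 77.02%, macrophages 24.2% and 10.3% and dendritic cells (DCs) 12.9% and 3.68%. Siglec1 in macrophages was at 37.95 (35.2 to 40.9) and 12.1 (9.96 to 14.5) CPM in WT and CD169-DTR, and in microglia at 18.95 (17.7 to 20.3) and 5.62 (5.00 to 6.30) CPM, so it was lower in the library labelled CD169-DTR. Median depth per cell was 7243 and 11907 UMIs in macrophages and 7651 and 7873 in microglia, and the depth gap in macrophages bears on shares of cells. The 12 microglial markers, none at 0, summed to 23640 and 24720 CPM in microglia against 2309 and 2697 in macrophages. The 15 macrophage markers, none at 0, summed to 9996 and 6626 CPM in macrophages and 5563 and 3631 in DCs, lower in CD169-DTR like Cd40 in both classes, and their part in the values of Cd40 and Tnfrsf1b was not tested.

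Tnf, Lta and Ltb are neighbors on chromosome 17 (build GRCm38): Ltb at 35194439 to 35196320 on the plus strand, Tnf at 35199381 to 35202007 and Lta at 35203165 to 35205351, both on the minus strand. The 3 genes span 10913 bases, with 3061 bases between Ltb and Tnf and 1158 between Tnf and Lta. The 250 bases before each RefSeq start (GRCm38.p6) are shown because these neighbors were found in unlike cell classes. The windows are chr17:35202008-35202257, minus strand for Tnf, chr17:35205352-35205601, minus strand for Lta and chr17:35194257-35194506, plus strand for Ltb. Capitals mark TATAAA in Tnf and Lta and a match to the NF-κB site consensus (kappa-B) in Ltb.
Tnf: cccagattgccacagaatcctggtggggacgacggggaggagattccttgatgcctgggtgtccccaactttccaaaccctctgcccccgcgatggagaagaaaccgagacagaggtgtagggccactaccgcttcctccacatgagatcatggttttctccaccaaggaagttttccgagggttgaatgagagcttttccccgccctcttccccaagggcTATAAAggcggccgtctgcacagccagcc
Lta: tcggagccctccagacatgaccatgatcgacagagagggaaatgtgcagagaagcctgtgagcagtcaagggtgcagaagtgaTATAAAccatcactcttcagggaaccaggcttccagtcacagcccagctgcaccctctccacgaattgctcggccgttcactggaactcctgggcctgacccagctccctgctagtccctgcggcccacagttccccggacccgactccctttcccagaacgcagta
Ltb: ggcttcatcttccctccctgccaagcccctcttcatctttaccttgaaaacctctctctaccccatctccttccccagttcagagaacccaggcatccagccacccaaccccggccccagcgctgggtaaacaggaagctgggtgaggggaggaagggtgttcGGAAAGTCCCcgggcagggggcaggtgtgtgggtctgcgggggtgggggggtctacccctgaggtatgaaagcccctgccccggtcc
The capitals begin 29 bases before the start in Tnf, 167 in Lta and 87 in Ltb. Searched on both strands, TATAAA occurred in 12.4% of 32851 mouse windows of this length and the kappa-B consensus in 7.25%. RefSeq windows were matched for 8 of the 10 genes. TGANTCA (6.75% of windows) occurred before Tnfsf13 and Tnfsf13b. A match is a description of letters, not of a bound site.

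Tnf was held mostly by microglia, and the libraries differed in opposite directions in microglia and macrophages. Microglia had 206 CPM (201 to 209.9) in the WT library against 277 CPM (273 to 282) in CD169-DTR, a log2 ratio of -0.43 (-0.47 to -0.39). Macrophages had 196 CPM (189.8 to 203) in the WT library against 150.0 CPM (142 to 158) in CD169-DTR, a log2 ratio of 0.39 (0.30 to 0.48). Tnf was thus lower in WT microglia and higher in WT macrophages. Of all Tnf UMIs, 62.1% (61.3 to 62.9) lay in microglia and 25.3% (24.6 to 26.03) in macrophages in WT, against 86.3% (85.7 to 86.8) and 8.54% (8.12 to 8.98) in CD169-DTR.

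Granulocytes, with few and shallow cells (169 and 194 cells, medians of 2924 and 3629 UMIs), had the highest Tnf level in both libraries. They had 455 CPM (405 to 510.0) in the WT library against 337 CPM (299.7 to 377) in CD169-DTR. In WT their interval lay apart from that of microglia, which overlapped that of macrophages. In CD169-DTR granulocytes, γδ T-like cells and microglia followed each other with overlapping neighbors, and macrophages lay apart below microglia. The γδ T-like cells (32 and 11 cells) had 149.7 and 296 CPM. DCs had 59.3 CPM (55.4 to 63.5) in the WT library against 78.8 CPM (70.3 to 88.1) in CD169-DTR, a log2 ratio of -0.41 (-0.60 to -0.22), which was -0.01 when the libraries were merged without integration and clustered again. T cells were at 48.9 and 32.1 CPM and natural killer (NK) cells at 26.5 and 24.2. Free RNA in the droplets was expected to give 70.2 and 79.04% of the NK cell UMIs. This and all later free RNA values rest on an estimate that depends on the B cells, as given with the processing.

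Few microglia held most of the Tnf. In WT, 213 microglia (4.50%) with 10 or more Tnf UMIs held 58.3% of the class total. In CD169-DTR, 317 (5.90%) held 67.98%. The highest cells had 235 and 411 Tnf UMIs. With every cell thinned to 4500 UMIs, 26.9% (25.6 to 28.3) of the microglia in WT and 28.6% (27.3 to 29.9) of those in CD169-DTR held a Tnf UMI, leaving out 631 and 562 shallower cells. The unthinned shares were 34.2% and 37.4%. Choroid plexus cells, which should lack Tnf, gave 0 of 144 thinned cells in WT, which allows up to 2.08%, and 1.83% in CD169-DTR, at medians of 14550 and 12530 UMIs before thinning.

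**Figure D1:**
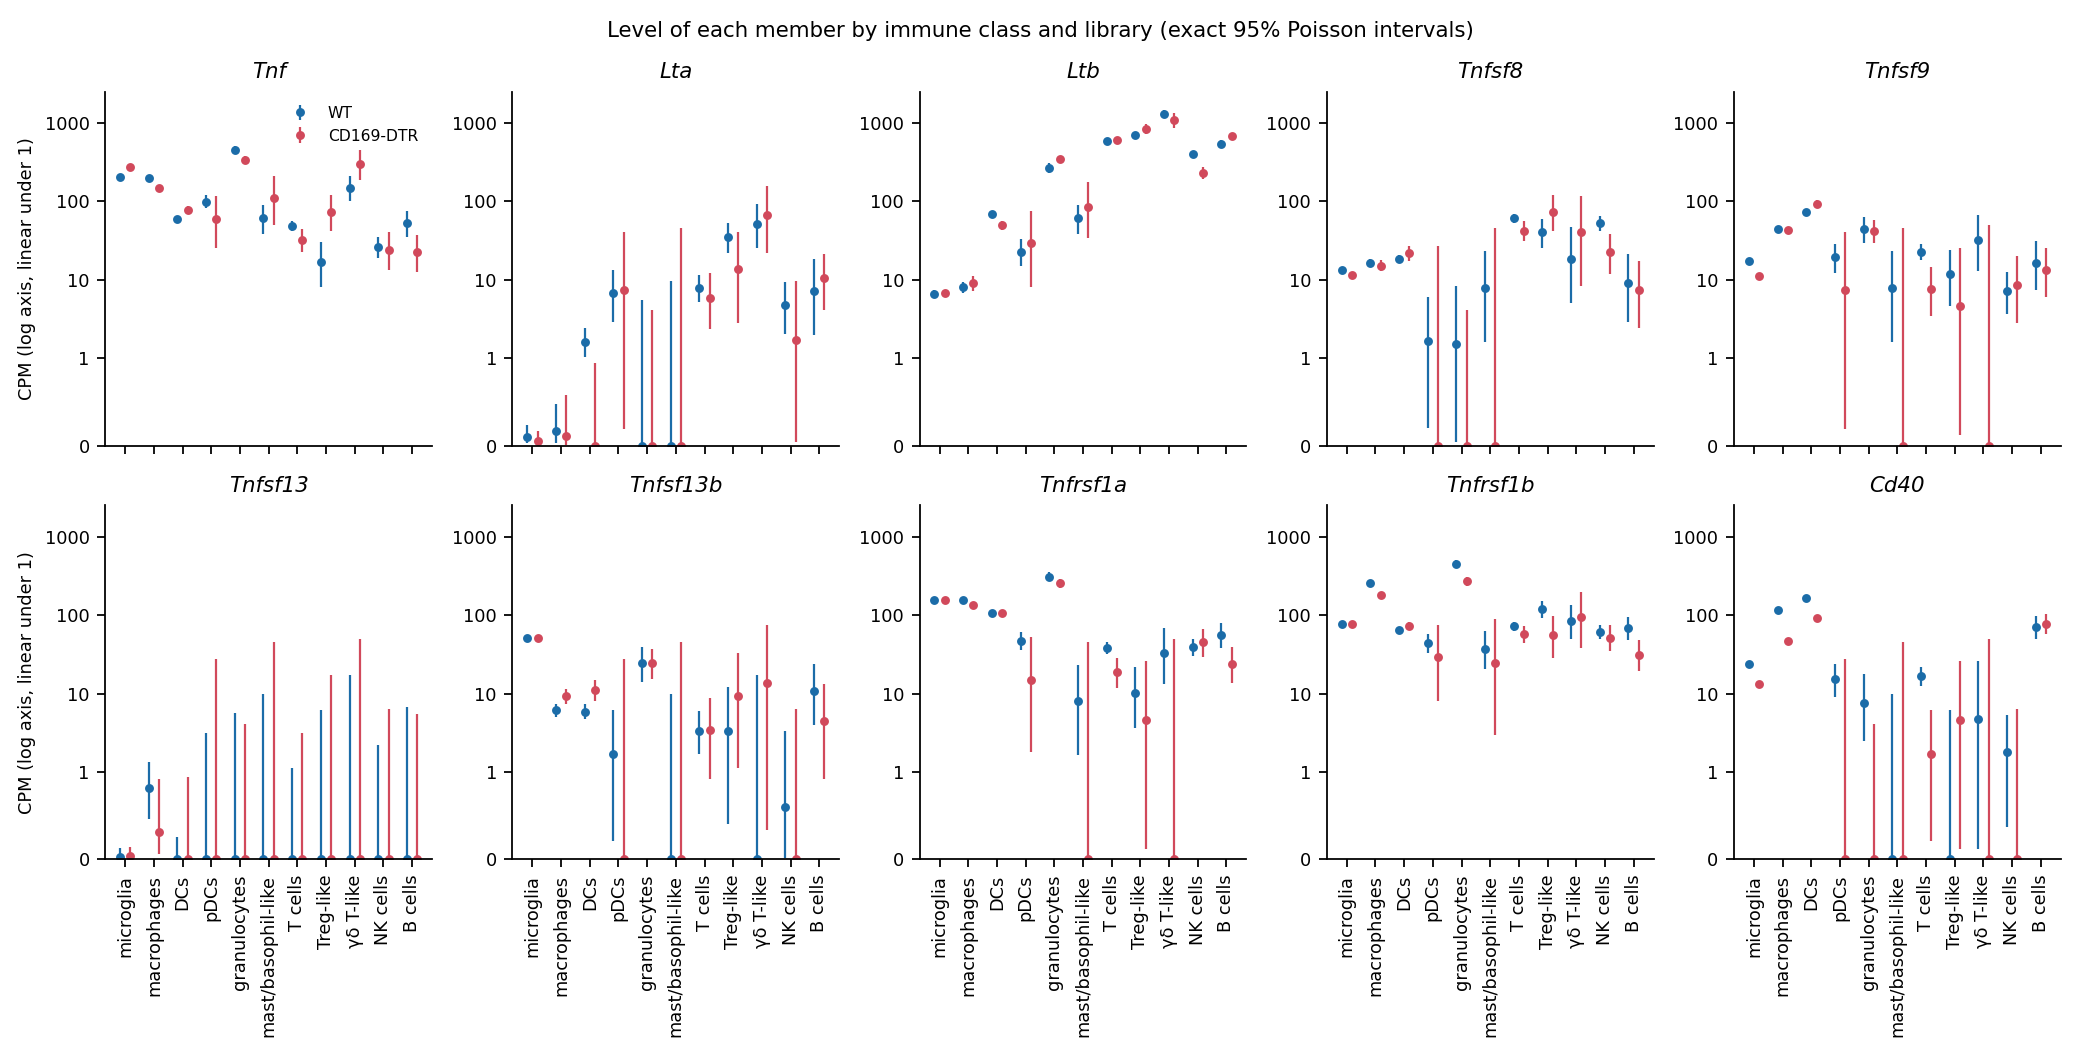
Level of each of the 10 genes in CPM (log axis, linear under 1) in 11 immune classes of WT (blue) and CD169-DTR (red), with exact 95% Poisson intervals as bars. Tnf is highest in granulocytes, Ltb in γδ T-like cells, Tnfsf13b in microglia and Cd40 in DCs, in both libraries. In CD169-DTR the interval of the highest class overlaps that of the next for Tnf, Ltb and Cd40.

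Within microglia, Tnf stood out in a single cluster. Of 8 microglial clusters, the one led by Il1a, Atf3 and Ccl4 (325 and 511 cells) had 1032 and 1150 CPM, and the largest, led by P2ry12, had 47.1 and 71.5. Tnf was itself among the 10 leading genes of the first, so this level describes the grouping. The cycling cluster led by Mki67 had 257 and 492 CPM. Tnf was higher in WT in 2 of 8 microglial and 3 of 4 macrophage clusters, so the opposite directions were seen in most but not all clusters.

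A list of 24 genes that respond to tissue handling, among them Fos, Jun, Egr1, Hspa1a and Atf3, was highest in the same microglial cluster. Atf3 is also a leading gene of that cluster, so the level of the list there partly describes the grouping. The list summed to 48320 and 55700 CPM there and to 17040 and 20870 in the P2ry12 cluster. Over all microglia it summed to 15210 and 19050 CPM, with 1 of 24 genes higher in WT and a median log2 ratio of -0.40. Over all macrophages it summed to 24530 and 20940 CPM, with 20 of 24 higher in WT and a median of 0.26. The list thus differed in the same direction as Tnf in both classes, and its part in the Tnf values was not tested. Without the Il1a cluster the log2 ratio of Tnf in microglia was -0.41.

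**Figure D2:**
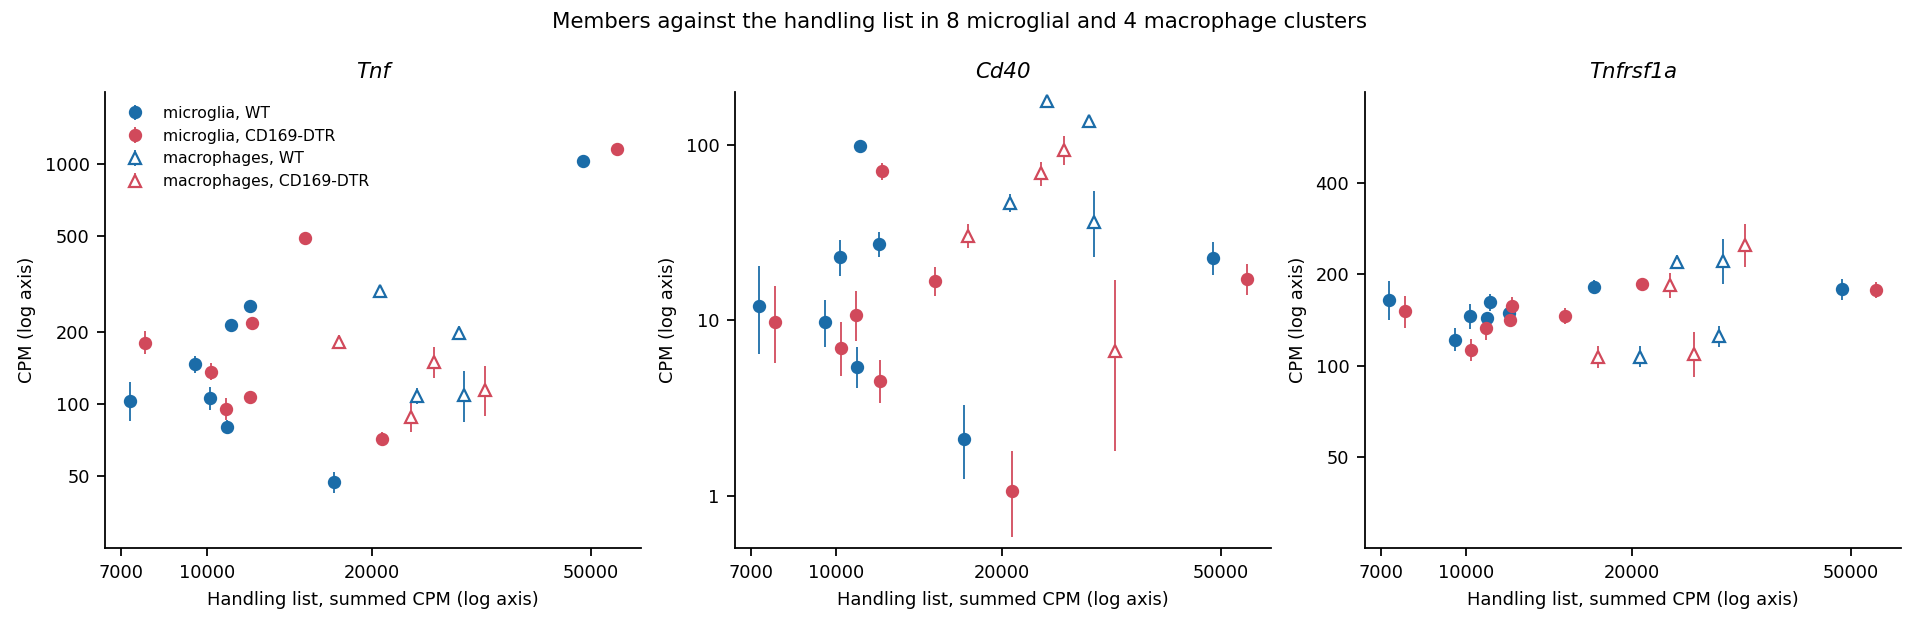
CPM of Tnf, Cd40 and Tnfrsf1a against the summed CPM of the 24 handling genes (all axes log) in 8 microglial clusters (filled circles) and 4 macrophage clusters (open triangles) of WT (blue) and CD169-DTR (red), with exact 95% Poisson intervals as bars. The rightmost pair of circles is the Il1a cluster, at 1032 and 1150 CPM of Tnf but 22.6 and 17.04 CPM of Cd40 and 179 and 178 CPM of Tnfrsf1a.

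Ltb, the membrane anchor of the lymphotoxin trimer that acts through the lymphotoxin beta receptor, was a lymphocyte gene. The γδ T-like cells had 1291 CPM (1143 to 1452) in the WT library against 1090 CPM (866 to 1355) in CD169-DTR. Treg-like cells had 704 and 834 CPM. That cluster was also led by Calca, Il13, Areg and Gata3, beside Ctla4 and Tnfrsf4. T cells had 581 CPM (555 to 608) in the WT library against 613 CPM (569 to 659.5) in CD169-DTR, and B cells had 535 and 673 CPM. In T cells the log2 ratio was -0.08 (-0.20 to 0.05), and it turned to 0.15 with thinned cells, so it had no settled sign.

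NK cells and the DCs as 1 class held more Ltb in WT. NK cells had 402 CPM (372 to 434) in the WT library against 233 CPM (195 to 276) in CD169-DTR, a log2 ratio of 0.79 (0.52 to 1.07). DCs had 69.3 CPM (65.02 to 73.8) in the WT library against 49.6 CPM (42.9 to 57.1) in CD169-DTR, a log2 ratio of 0.48 (0.26 to 0.71), with 2 of 3 DC clusters higher in WT. Migratory DC-like cells (119 and 12 cells) went the other way, with 24.99 and 137 CPM and a log2 ratio of -2.45 (-3.24 to -1.66), but 21 of the 27 CD169-DTR UMIs were in 1 cell. Granulocytes had 266 and 343 CPM, below NK cells in WT and above them in CD169-DTR, and above DCs, macrophages and microglia in both.

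Microglia and macrophages held little Ltb, with 6.59 and 6.79 CPM in microglia against 8.13 and 9.02 in macrophages. Free RNA was expected to give 87.9 and 22.7% of the microglial and 79.7 and 12.5% of the macrophage UMIs, in WT and CD169-DTR. The macrophage cluster led by Ear2, Treml4 and Ace (95 and 92 cells) was the exception, with 130.3 and 99.3 CPM and 83 of 149 and 60 of 86 macrophage UMIs. The log2 ratio in macrophages was -0.15 (-0.54 to 0.25) and changed to 0.36 without that cluster. Thinned to 4500 UMIs, 78.2% (72.99 to 82.8) of the T cells in WT and 77.9% (70.03 to 84.6) of those in CD169-DTR held Ltb, against 87.1% and 84.3% unthinned. Choroid plexus cells gave 1.39% and 1.22% thinned, with T cell medians of 6454 and 6788 UMIs and choroid plexus medians of 14550 and 12530.

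Lta, which joins Ltb in the membrane trimer or forms a soluble trimer that binds the TNF receptors, was rare, with 108 UMIs in WT and 28 in CD169-DTR immune cells. It was highest in γδ T-like cells (51.5 and 67.3 CPM) and Treg-like cells (35.2 and 13.8 CPM), whose intervals overlapped in both libraries. T cells had 7.95 and 5.92 CPM. Of 23 UMIs in WT DCs, 20 lay in migratory DC-like cells and 12 in 1 cell, and CD169-DTR DCs had 0, which allows up to 0.768 CPM. Microglia had 4 and 3 UMIs, no more than free RNA was expected to give. Of the 3 neighboring genes, Ltb and Lta were thus highest in γδ T-like cells and Tnf in granulocytes in both libraries, and γδ T-like cells held all 3. In CD169-DTR the interval of each of these highest classes overlapped that of the next class.

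Tnfsf8, the CD30 ligand, was spread over lymphoid and myeloid classes. T cells had 60.9 CPM (52.7 to 69.95) in the WT library against 42.3 CPM (31.4 to 55.8) in CD169-DTR, a log2 ratio of 0.53 (0.07 to 1.00). NK cells had 52.9 CPM (42.4 to 65.2) in the WT library against 22.4 CPM (11.95 to 38.4) in CD169-DTR, a log2 ratio of 1.24 (0.39 to 2.20). In CD169-DTR 7 of the 13 NK cell UMIs lay in 1 cell, and the ratio was 0.98 with each cell given the same weight and, without the highest cell of each library, 2.21. DCs had 18.6 and 21.8 CPM, macrophages 16.6 and 15.2 and microglia 13.5 and 11.4. Among macrophage clusters it was highest in the one led by Slfn4, F10 and Ly6c2, with 35.4 and 46.96 CPM. Tnfrsf8, which encodes CD30 and is named as the known partner, not one of the 10 genes, had 23 and 0 UMIs in T cells and was at 3.87 and 2.10 CPM in macrophages.

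Tnfsf9, the 4-1BB ligand that co-stimulates T and NK cells, was highest in DCs. They had 74.3 CPM (69.9 to 78.9) in the WT library against 93.7 CPM (84.3 to 104) in CD169-DTR, a log2 ratio of -0.33 (-0.51 to -0.16). Macrophages had 44.3 CPM (41.3 to 47.4) in the WT library against 42.8 CPM (38.8 to 47.2) in CD169-DTR, a log2 ratio of 0.05 (-0.12 to 0.22). Microglia were lower and differed more, with 17.4 CPM (16.2 to 18.7) in the WT library against 11.2 CPM (10.3 to 12.2) in CD169-DTR, a log2 ratio of 0.64 (0.48 to 0.79), and 6 of 8 microglial clusters were higher in WT. Among DCs, cDC2-like cells had 92.1 and 112 CPM and cDC1-like cells 24.4 and 14.9. Tnfrsf9, which encodes the partner 4-1BB, was at 350.4 and 249 CPM in Treg-like cells, 191 and 139.8 in NK cells and 74.3 and 34.7 in T cells, and at 15.8 and 7.42 in DCs.

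Tnfsf13b, the gene of the B cell survival factor BAFF, was highest in microglia and nearly equal there between the libraries. Microglia had 50.7 CPM (48.6 to 52.8) in the WT library against 50.9 CPM (48.99 to 52.9) in CD169-DTR, a log2 ratio of -0.01 (-0.09 to 0.08). They held 88.4% and 92.6% of its UMIs, and 45.7% and 66.8% of all UMIs. Among microglial clusters it was highest in the one led by Cxcl13, Ifnb1 and Cxcl10, with 79.4 and 90.1 CPM. Macrophages had 6.16 and 9.23 CPM (log2 ratio -0.58, -1.00 to -0.16). DCs had 83 and 43 UMIs (log2 ratio -0.91, -1.46 to -0.34), and with thinned cells the ratio was -1.66, past 2-fold. Tnfsf13b was lower in WT in each of the 4 macrophage and 3 DC clusters, but the migratory DC-like cluster had only 0 and 1 UMIs. Free RNA was expected to give 30.9 and 13.3% of its macrophage UMIs in WT and CD169-DTR.

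The BAFF receptors are named as partners. Tnfrsf13c was at 141 and 192 CPM in B cells and 0.303 and 0.365 in microglia. Tnfrsf13b was at 161 and 169.6 CPM in plasmacytoid DCs, 127 and 134 in B cells and 39.4 and 50.5 in microglia. Tnfrsf17 was at 17.95 and 18.04 CPM in microglia. Tnfsf13, the gene of APRIL, had 16 and 5 immune UMIs, of which 15 and 3 were in macrophages, each in a different cell. It lies on chromosome 11 at 69682846 to 69685784 and overlaps Tnfsfm13 on the same strand and the antisense Tnfsf13os, so its counts are uncertain.

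Tnfrsf1a, the gene of TNFR1, was nearly level between the libraries in microglia. They had 156 CPM (152 to 159.7) in the WT library against 156 CPM (152 to 159) in CD169-DTR, a log2 ratio of 0.00 (-0.04 to 0.05). Macrophages had 155 CPM (149 to 161) in the WT library against 136 CPM (128 to 143) in CD169-DTR, a log2 ratio of 0.19 (0.10 to 0.29). DCs had 108 and 105 CPM, a log2 ratio of 0.04 (-0.12 to 0.20). Granulocytes were highest, with 309.7 and 254 CPM, and Treg-like cells among the lowest, with 10.1 and 4.61. Endothelial cells carried through the sort had 152 and 145 CPM. In the Il1a cluster of microglia, where Tnf was highest, Tnfrsf1a was at 179 and 178 CPM, against 182 and 186 in the P2ry12 cluster.

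Tnfrsf1b, the gene of TNFR2, was highest in granulocytes and macrophages and higher in WT in both. Granulocytes had 446 CPM (397 to 500.3) in the WT library against 269.9 CPM (237 to 306) in CD169-DTR, a log2 ratio of 0.73 (0.48 to 0.98). Macrophages had 258 CPM (250.4 to 265) in the WT library against 182 CPM (174 to 191) in CD169-DTR, a log2 ratio of 0.50 (0.42 to 0.58), and 3 of 4 macrophage clusters were higher in WT. Thinning lowered that ratio to 0.27, and leaving out the cluster led by Gpnmb, Fabp5 and Pf4 lowered it to 0.28. Microglia had 76.7 and 76.7 CPM, a log2 ratio of 0.00 (-0.07 to 0.07). The Ear2 cluster of macrophages had the highest level of the 4, 427 and 434 CPM, nearly level between the libraries. Treg-like cells had 119 and 55.3 CPM.

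**Figure D3:**
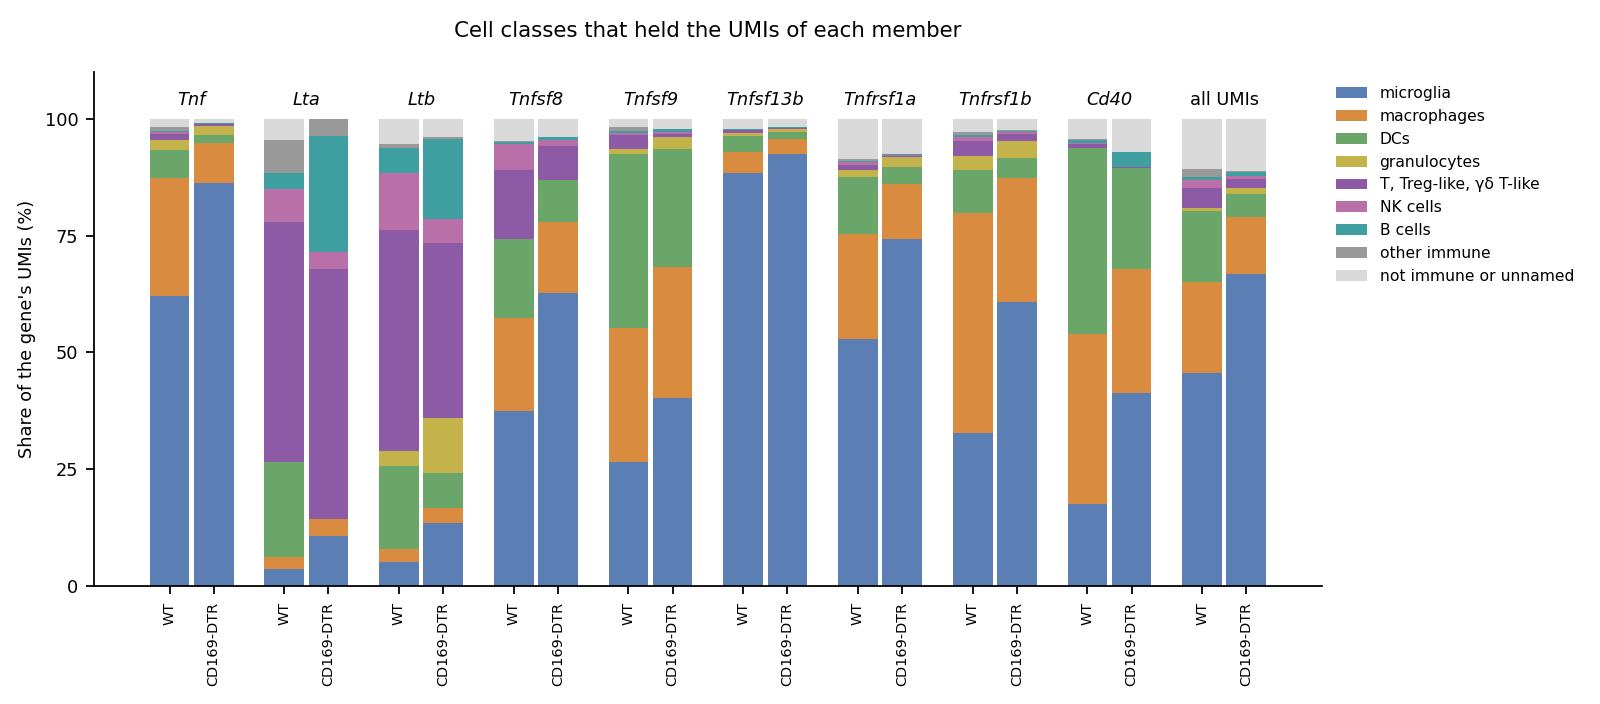
Share of each gene's UMIs (%) by cell class in WT and CD169-DTR, as stacked bars, with all UMIs of the cells for comparison; Tnfsf13 is left out for its few UMIs. Microglia held 62.1% and 86.3% of Tnf and 88.4% and 92.6% of Tnfsf13b, and DCs 39.8% and 21.6% of Cd40. T cells held 34.6% and 27.6% of Ltb, and are drawn as 1 segment with Treg-like (7.65% and 6.89%) and γδ T-like cells (5.03% and 3.08%).

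Cd40 was higher in WT in macrophages, DCs and microglia. Macrophages had 117 CPM (112 to 122) in the WT library against 46.4 CPM (42.1 to 50.9) in CD169-DTR, a log2 ratio of 1.34 (1.19 to 1.49) or 2.52-fold. DCs had 166 CPM (159 to 172) in the WT library against 91.6 CPM (82.4 to 102) in CD169-DTR, a log2 ratio of 0.85 (0.69 to 1.02). Microglia had 23.9 CPM (22.4 to 25.4) in the WT library against 13.2 CPM (12.2 to 14.2) in CD169-DTR, a log2 ratio of 0.86 (0.72 to 1.00). B cells, which receive T cell help through CD40, had 70.5 and 77.6 CPM, with a log2 ratio of -0.14 (-0.77 to 0.49) that included 0.

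The direction was the same in 8 of 8 microglial, 4 of 4 macrophage and 3 of 3 DC clusters. In macrophages the cluster led by Chil3 had 178 and 68.6 CPM, the Slfn4 cluster 136 and 93.1 and the Gpnmb cluster 46.3 and 30.2. The microglial cluster led by Cxcl13 had 97.8 and 70.6 CPM and held 592 of 1025 and 319 of 687 microglial UMIs. Migratory DC-like cells had 323 CPM (292 to 355) in the WT library against 283 CPM (214 to 368) in CD169-DTR, with overlapping intervals. With each cluster given the same weight in both libraries the log2 ratio was 0.95 in macrophages, which ends the 2-fold call, and 0.53 in microglia. With every cell thinned to 4500 UMIs the microglial ratio was 1.11, past 2-fold.

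A smaller share of CD169-DTR macrophages and DCs held a Cd40 UMI at equal depth. At 4500 UMIs per cell the share was 31.1% (28.9 to 33.5) of the macrophages in WT and 15.2% (12.5 to 18.2) of those in CD169-DTR, leaving out 657 and 77 shallower cells, against 38.7% and 30.8% unthinned. In DCs it was 43.2% (40.2 to 46.2) and 27.5% (21.95 to 33.6), against 59.5% and 49.8% unthinned. Choroid plexus cells gave 1.39% and 1.22%, at medians of 14550 and 12530 UMIs, where macrophages had 7243 and 11907. Free RNA was expected to give 21.8 and 7.99% of microglial Cd40 UMIs, and with it subtracted the microglial log2 ratio was 0.67. Cd40lg, the gene of the partner CD40 ligand, was at 7.04 and 9.30 CPM in T cells and 13.4 and 23.02 in Treg-like cells, with 0 UMIs in microglia and DCs.

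The members past the 2-fold mark were counted in 5 classes. In microglia 0 of 8 members with enough UMIs were 2-fold or more apart, where 2.9% of all 13743 genes tested were, and the median log2 ratio was 0.00 for the members and -0.04 for all genes. In macrophages 1 of 8 members with enough UMIs were 2-fold or more apart, where 5.25% of all 11725 genes tested were, and the median log2 ratio was 0.16 for the members and -0.05 for all genes, and the member was Cd40. In DCs 0 of 8 members with enough UMIs were 2-fold or more apart, where 6.55% of all 11180 genes tested were, and the median log2 ratio was -0.20 for the members and -0.03 for all genes. In NK cells 1 of 5 members with enough UMIs were 2-fold or more apart, where 6.78% of all 7521 genes tested were, and the median log2 ratio was 0.24 for the members and -0.03 for all genes, and the member was Tnfsf8, a call that ended with each cell given the same weight (0.98) and with every cell thinned to 4500 UMIs (0.99).

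Smaller classes are given as values without a count. In Treg-like cells Tnf had 10 and 16 UMIs, a log2 ratio of -2.14 (-3.44 to -0.91), Lta one of 1.35 (-0.39 to 3.74) and Tnfrsf1b one of 1.11 (0.21 to 2.13). Tnf was thus lower in WT Treg-like cells, on few UMIs. In B cells the log2 ratio was 1.23 (0.28 to 2.23) for Tnf, 1.23 (0.32 to 2.20) for Tnfrsf1a and 1.13 (0.33 to 1.98) for Tnfrsf1b, all higher in WT. The B cells also held 3409 and 923 CPM of macrophage markers and 4655 and 3358 CPM of microglial markers. The part of RNA from other cells in these 3 ratios was not tested. In plasmacytoid DCs (102 and 11 cells) Tnfsf9 and Tnfrsf1a had 1 and 2 UMIs in CD169-DTR, and the intervals of their log2 ratios, 1.40 (-1.23 to 6.76) and 1.68 (-0.24 to 4.76), included 0.

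In T cells 3 of 8 members with enough UMIs were 2-fold or more apart, where 12.1% of all 9360 genes tested were, and the median log2 ratio was 0.57 for the members and 0.12 for all genes. The 3 were Cd40 (3.29, 1.37 to 6.37), Tnfsf9 (1.57, 0.57 to 2.76) and Tnfrsf1a (1.04, 0.38 to 1.76), all higher in WT. A T cell cluster led by Tnfrsf18, Tnfrsf4 and Lyz1 (45 and 2 cells) held 42 of the 54 WT Cd40 UMIs, 31 of 74 for Tnfsf9 and 58 of 125 for Tnfrsf1a. In WT it had 4638 CPM of macrophage markers and 1969 of NK markers beside 2112 of T cell markers, and the part of other cells in these values was not tested. Without it the log2 ratio of Tnfrsf1a was 0.53, of Tnfsf9 1.28 and of Tnf 0.08 in place of 0.61. With each cluster given the same weight the call of Tnfsf9 ended (0.91), as did that of Tnfrsf1a (0.65), and Cd40 was at 1.12. All 3 values weight the 2 CD169-DTR cells of this cluster, which together held 1 UMI of Tnfsf9, 1 of Tnfrsf1a and 1 of Cd40.

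**Figure D4:**
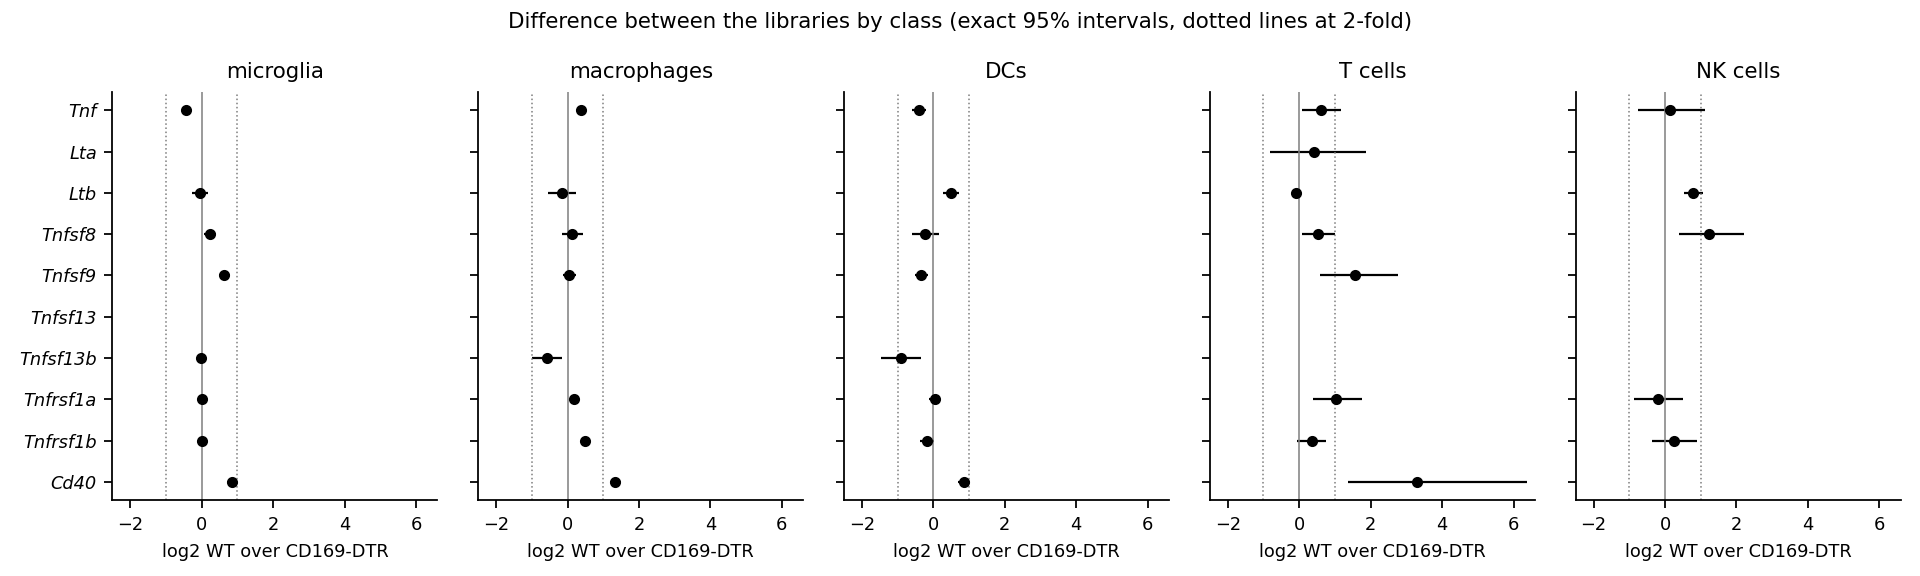
Log2 ratio of WT over CD169-DTR for the members with enough UMIs in 5 classes, with exact 95% intervals as bars and dotted lines at 2-fold. Cd40 lies on the WT side in microglia, macrophages, DCs and T cells, while Tnf is at -0.43 in microglia and 0.39 in macrophages. In T cells a single cluster held 42 of the 54 WT Cd40 UMIs.

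Over all immune cells, the share of each class entered the differences. In such sums fewer cells of a class and less RNA per cell cannot be told apart, so each gene was also computed with the WT level of each class weighted by the CD169-DTR make-up. Cd40 (67.1 and 22.2 CPM, log2 ratio 1.59, 1.51 to 1.68) was then at a log2 ratio of 1.00. Ltb (61.9 and 36.4 CPM, log2 ratio 0.77, 0.70 to 0.83) was then at -0.04. By the same weighting Tnfsf13b went from -0.50 to -0.03, Tnfsf9 from 0.69 to 0.27, Tnf from -0.52 to -0.31 and Tnfrsf1b from 0.33 to 0.19. Ltb and Tnfsf13b thus lay close to 0 at equal make-up, and Cd40 and Tnf did not.

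Macrophages with and without a Siglec1 UMI were compared within each library. The cells were split by Siglec1 at full depth, and the other genes were then counted at 4500 UMIs per cell (386 with and 1214 without in WT, 87 and 553 in CD169-DTR). A cell without a Siglec1 UMI may still express the gene. Tnfsf8 was higher in the cells with Siglec1, at 21.9 and 12.3 CPM in WT (log2 ratio 0.83, 0.22 to 1.43) and 38.3 and 15.3 CPM in CD169-DTR (1.33, 0.36 to 2.22). Unthinned, these ratios were 0.25 (-0.13 to 0.61) and 0.07 (-0.61 to 0.70), so the difference was not seen without thinning. Ltb had 3 against 67 UMIs in WT (log2 ratio -2.83, -5.14 to -1.22) and 0 against 47 in CD169-DTR, and so was lower in the cells with Siglec1. Unthinned it had 23 against 126 UMIs in WT, a smaller log2 ratio of -0.88 (-1.59 to -0.23), and 0 against 86 in CD169-DTR. The Ear2 cluster held 83 of 149 and 60 of 86 of these macrophage UMIs, and its part in the split was not tested.

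Tnf was at 166 and 199.9 CPM in WT cells with and without Siglec1 (log2 ratio -0.26, -0.46 to -0.08), and at 153 and 163 in CD169-DTR (-0.09, -0.50 to 0.31). For Cd40 the thinned log2 ratio was -0.12 (-0.35 to 0.11) in WT, and it was -0.02 (-0.78 to 0.67) in CD169-DTR, with intervals that included 0. Unthinned they were -0.17 (-0.32 to -0.03) and -0.48 (-0.92 to -0.07), both below 0. Cd40 was thus not higher in the macrophages with a Siglec1 UMI in either library.

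**Figure D5:**
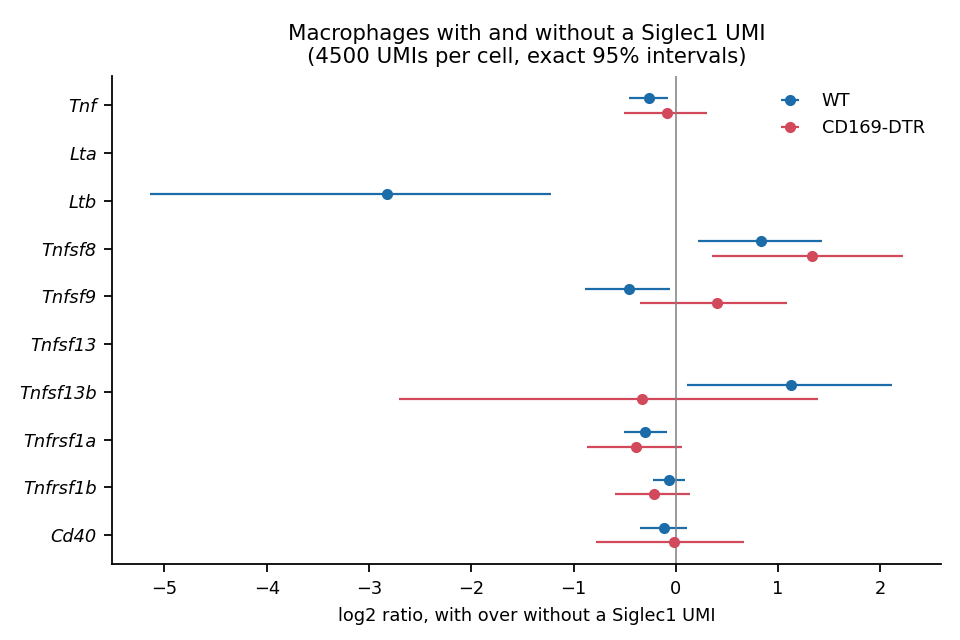
Log2 ratio of macrophages with over macrophages without a Siglec1 UMI at full depth for each gene in WT (blue) and CD169-DTR (red), with the genes counted at 4500 UMIs per cell, with exact 95% intervals as bars. Tnfsf8 lies to the right of 0 in both libraries and Ltb far to the left in WT, and Lta and Tnfsf13 had too few UMIs.

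The genes with the most similar pattern were ranked by Pearson r of log2(CPM + 1) over 22 points, 11 classes in each of 2 libraries, which share depth and free RNA within a library. For Tnf they were Mafg (0.86), Rnf19b (0.85) and Cdkn1a (0.83), for Lta Sit1 (0.91), Ppp1r16b (0.87) and Mettl23 (0.86) and for Ltb Tbc1d10c (0.93), Zdhhc18 (0.89) and Nfatc3 (0.88). For Tnfsf8 they were Gm4070 (0.88), Thap2 (0.88) and Hps6 (0.88), for Tnfsf9 Oasl1 (0.87), Tnfrsf1a (0.87) and Plekho2 (0.86) and for Tnfsf13b Nckap1l (0.88), Adam15 (0.87) and Slc40a1 (0.86). For Tnfrsf1a they were Oasl1 (0.93), Apobec1 (0.91) and Il10rb (0.91), for Tnfrsf1b Ccrl2 (0.88), Trem3 (0.87) and Tnfaip6 (0.86) and for Cd40 Ms4a4c (0.90), Gm5431 (0.85) and Gm44751 (0.85). Tnfsf13, on very few UMIs, was nearest to Vldlr (0.98), Atp2b3 (0.96) and Col5a2 (0.90). Tnfsf9 and Tnfrsf1a shared Oasl1 as their nearest gene.

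The rest of the pathway gave the setting of these values in macrophages. Of 23 genes of signal adaptors, signal relays and TNF shedding, 17 were higher in WT and 2 were 2-fold apart. Their median log2 ratio was 0.17 against -0.05 for all genes, of which 5.25% were 2-fold apart. The handling list differed in the same direction in macrophages, with 20 of 24 genes higher in WT, and its part was not tested. The 2 genes past the mark were Traf1, an adaptor of TNFR2 and CD40 (198 and 89.4 CPM, log2 ratio 1.14, 1.04 to 1.25), and Mlkl, the executor of necroptosis (29.8 and 13.95 CPM, log2 ratio 1.10, 0.82 to 1.38). Rhbdf2, a partner of the protease that sheds TNF, followed (55.4 and 35.6 CPM, log2 ratio 0.64, 0.46 to 0.82). The lowest were Fadd (-0.59), Traf6 (-0.28) and Map3k14 (-0.21). Of 14 inhibitors 11 were higher in WT and 0 were 2-fold apart, with a median of 0.26. The highest were Cflar (0.56), Birc2 (0.52) and Birc3 (0.41), which restrain death signals, and the lowest Otulin (-0.07), Cyld (-0.03) and Itch (-0.01).

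Of 11 other ligands, 4 had enough UMIs in macrophages and all 4 were higher in WT, with 1 past 2-fold (5.25% of all genes were): Tnfsf10, the gene of TRAIL (23.1 and 9.65 CPM, log2 ratio 1.26, 0.93 to 1.60), Tnfsf15 (0.95), Tnfsf14 (0.30) and Tnfsf12 (0.12). Of 15 other receptors with enough UMIs, 12 were higher in WT. The highest by the naming rule were Tnfrsf8 (0.88), Fas (0.65) and Tnfrsf12a (0.58), and the lowest Tnfrsf13b (-0.53), Relt (-0.29) and Tnfrsf11a (-0.07). The single receptor 2-fold apart, Tnfrsf4 (18 and 2 UMIs), was named after its values were seen.

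In microglia the same lists lay near the values of all genes. Of the 23 adaptor, relay and shedding genes 11 were higher in WT and 0 were 2-fold apart, with a median of -0.04. The highest were Traf1 (0.51), Mlkl (0.41) and Rhbdf2 (0.11), and the lowest Traf6 (-0.33), Rela (-0.30) and Map3k14 (-0.26). Of the 14 inhibitors 6 were higher in WT, with a median of -0.02. Tnfaip3, the NF-κB target that encodes A20 (80.3 and 109 CPM, log2 ratio -0.44, -0.50 to -0.38), Nfkbia, which encodes the inhibitor IκBα (532 and 658 CPM, log2 ratio -0.31, -0.33 to -0.28), and Birc3 (-0.17) were lowest, and Tank (0.15), Birc2 (0.08) and Tnip2 (0.08) highest. The handling list differed in the same direction as Tnfaip3 and Nfkbia in microglia, and its part was not tested.

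Of 5 other ligands with enough UMIs in microglia, 4 were higher in WT and 1 was 2-fold apart, where 2.9% of all genes were, namely Tnfsf15 (1.49 and 0.633 CPM, log2 ratio 1.23, 0.61 to 1.89). The others were Tnfsf10 (0.67), Tnfsf14 (0.12), Tnfsf12 (0.02) and Tnfsf18 (-0.17). Of 19 other receptors 8 were higher in WT, with a median of -0.01. By the naming rule the highest were Tnfrsf4 (0.47), Tnfrsf14 (0.30) and Tnfrsf10b (0.24), and the lowest Relt (-0.53), Tnfrsf12a (-0.40) and Tnfrsf13b (-0.36). The single receptor 2-fold apart, Tnfrsf18 (29 and 13 UMIs), was named after its values were seen. The receptor of the lymphotoxins, Ltbr, was at 56.98 and 58.2 CPM in microglia, 51.1 and 50.4 in macrophages and 8.26 and 0.846 in T cells.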

How the data were processed

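The authors aligned and counted the reads with Cell Ranger (mm10 per the labels; software version 3.1.0 per the file headers) and deposited raw UMI counts per gene and barcode, 1 matrix per library. Only barcodes of 1000 or more UMIs, with mitochondrial genes at 17% of them or less, entered here. Cells were integrated and clustered in R 4.3.3 with Seurat 5.3.0 (2000 variable features without the members, 30 dimensions, resolution 1; T and NK cells again at 0.5), and clusters were named from fixed markers. The cluster led by Gpnmb, Fabp5 and Pf4 was named border-associated by its markers and was counted among the macrophages. The Ear2 cluster, named macrophage, had 5868 and 2738 CPM of macrophage markers, against 13730 and 11570 in the Chil3 cluster. Doublets were removed only in an alternative, with Scrublet in scanpy 1.11.5. Counts were summed per class, and intervals came from scipy 1.17.1. The scripts were tested on simulated data. The members and lists were chosen with earlier results of these data known. Text names the 10 members, for each pathway list in macrophages and microglia the 3 highest and 3 lowest log2 ratios among genes with 50 or more UMIs, and for each member the 3 genes of highest Pearson r among those with 200 or more UMIs. Library totals were 101808996 and 84065489 UMIs, and free RNA was estimated at 744 and 466 UMIs per droplet, from microglial markers in lymphocytes. These were T, NK and B cells pooled. The markers were at 4655 and 3358 CPM in B cells, against 864 and 286 in T cells and 282 and 376 in NK cells. The estimate thus depends on the B cells, and it was not made without them. Positions are from GENCODE for GRCm38 and promoter windows from RefSeq.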

Additional observations from a re-analysis of the deposited data

Results flagged for a closer look

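The log2 ratio of Tnf between WT and CD169-DTR lay on opposite sides of 0 in the 2 largest myeloid classes, -0.43 in microglia and 0.39 in macrophages. The difference between these ratios was not tested, since each genotype had 1 library.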

How the results depend on the processing

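Results were computed again under 14 other settings and 3 more chosen after seeing the data, not all of them for each ratio. A higher minimum of UMIs was applied only to the counts of members 2-fold apart. Under the rest, 37 member ratios gave 471 values, of which 418 moved by less than their counting interval. Tnf kept its sign in microglia and macrophages under each setting run there, but in NK cells it kept it in 7 of 11 (0.13 as reported, lowest -0.43). In microglia its log2 ratio was -0.38 with the highest Scrublet scores removed, -0.39 with free RNA subtracted and also with median-ratio scaling, -0.32 with each cell given the same weight and also with cells thinned to 4500 UMIs, and -0.33 with each cluster given the same weight. In macrophages it was 0.48 with free RNA subtracted, 0.54 with each cluster given the same weight and 0.25 with thinned cells. In microglia 1 member in place of 0 was 2-fold apart with free RNA subtracted (Ltb) and with thinned cells (Cd40, 1.11). In macrophages 2 members in place of 1 were 2-fold apart with Scrublet scores removed, with free RNA subtracted and with each cell given the same weight, and 0 with each cluster given the same weight. The share of all genes past 2-fold was not computed under these settings, so these counts have no background beside them. The causes were not tested. With free RNA subtracted the ratio of Ltb was -2.67 in microglia and -2.17 in macrophages. The 3 left out the T cell cluster led by Tnfrsf18, the microglial cluster led by Il1a and the macrophage cluster led by Ear2. With the members kept among the variable features, 1 microglial cluster was left unnamed. No paired analysis was possible because each genotype had 1 library. Leaving out a replicate was not possible for the same reason. Lta and Tnfsf13 had too few UMIs for a ratio in most classes.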
